A study of Mus musculus with 6 samples.

Results

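Ltf, Camp, Ngp, Lcn2, Pglyrp1, Cd177, Itgb2l, Ceacam10 and Padi4 are genes of the neutrophil lineage that encode proteins of the secondary granules, proteins of the cell surface and a chromatin-modifying enzyme. They were taken by name from the probe annotation of the arrays, which held 11 non-control probes for the 9 genes, and all 9 passed the filter on dim probes that left 16365 genes in the comparison. The genes were chosen by their intensity and their detection above background on the heart arrays against the spleen arrays, so their levels in the 2 tissues are a description and carry no test. Each of the 6 single-colour microarrays held myeloid cells of 1 organ from a C57BL/6N wild-type mouse 3 days after acute myocardial infarction. The infarcted left ventricle gave heart 1, heart 2 and heart 4, and the spleen gave spleen 1, spleen 2 and spleen 4. The sort kept CD45-high, CD11b-high cells with little B220, Thy-1.2, NK-1.1, DX5 and Ly6G on their surface. Ly6G is an antigen of mature neutrophils, so the gate was meant to leave such cells out in both tissues. The RNA input was 10 ng per sample. The organs were handled one by one, and the labels do not say whether a spleen and a ventricle of the same number came from 1 animal. No uninfarcted mice were analysed here.

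Neutrophils make their granules in sequence while they mature in the bone marrow. Primary granules with myeloperoxidase and serine proteases come first, secondary granules with lactoferrin and cathelicidin follow at the myelocyte stage, and transcription of these genes is largely shut off in the mature cell. The factor C/EBP epsilon is required for the secondary granule programme, and Gfi1, PU.1 and RUNX1 act earlier in the lineage. After an infarct neutrophils reach the injured muscle first and monocytes replace them over the following days, while the spleen releases stored monocytes and can itself produce myeloid cells.

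The members lie on 5 chromosomes, and several are close to each other. In the RefSeq gene table of GRCm38.p6, Camp, Ngp and Ltf follow each other on chromosome 9, with 8 protein-coding genes between Camp and Ngp and 20 between Ngp and Ltf. Cd177 and Ceacam10 are neighbours on chromosome 7 with 0 protein-coding genes between them, and Pglyrp1 lies on the same chromosome with 191 between it and Cd177. The promoters of Ltf and Ngp are shown because these genes had the lowest heart-minus-spleen differences among the members on that chromosome, also with dim arrays at the bound, and hold the same 8 letters. Each sequence is the 150 bases before the RefSeq start in GRCm38.p6, at chr9:111019142-111019291 on the plus strand for Ltf and chr9:110419658-110419807 on the plus strand for Ngp, and capitals mark matches to the C/EBP-type motif TTNCNNAA on either strand.
Ltf promoter: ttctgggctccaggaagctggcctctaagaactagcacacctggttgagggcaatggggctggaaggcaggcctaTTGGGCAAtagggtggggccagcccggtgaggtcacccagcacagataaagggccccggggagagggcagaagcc
Ngp promoter: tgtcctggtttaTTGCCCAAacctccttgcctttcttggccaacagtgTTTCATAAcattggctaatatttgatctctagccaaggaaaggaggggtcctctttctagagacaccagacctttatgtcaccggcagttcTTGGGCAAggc

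The 8 letters TTGGGCAA, searched on both strands and chosen after the promoters had been read, stood once in Ltf at −75 to −68 from the start and at −138 to −131 and −11 to −4 in Ngp. They were found in 0.828% of the 32851 promoter windows of 300 bases (250 before to 50 after the start). The looser motif TTNCNNAA, which these letters match on the opposite strand, matched 5 of the 9 members (Ltf, Ngp, Lcn2, Cd177 and Itgb2l) and 40.7% of all promoters. The core letters of other lineage factors were also looked up on both strands. The PU.1-type motif GAGGAA matched 6 of 9 members and 28.3% of all promoters, the RUNX-type motif TGNGGT 4 of 9 and 45.8%, and the GFI1-type motif AAATCA 1 of 9, Ltf, and 14.0%. These are letter matches, and no binding was measured.

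Camp was read by a pair of overlapping probes, whose shared stretch is shown because it tells how far their values are independent. The probes share 50 bases of the Camp transcript and differ in that stretch by A6G and T10C, with positions counted from its first base. Its first 30 bases, as the scanner files give them, have the differing bases in capitals.
Camp probe at 9:109749911-109749970: cagccAgagTagtaggcctgccttggcctg
Camp probe at 9:109749901-109749950: cagccGgagCagtaggcctgccttggcctg
Both are 60 bases long and lie on the minus strand in mm9, and the files place 60 bases of the first and 50 of the second on the genome. The labels give these placed spans, not the span of the printed stretch. The transcript starts of the probes are 10 bases apart. By them the part of the second probe that is not placed is its first bases, which hold both differences. Positions of probes relative to exons were not analysed here.

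On each array 52.8% to 63.6% of probes were well above background and 0 spots were saturated. Levels below are the processed intensity of a probe as scanned, or its log2 value minus the 75th percentile of the same array, and a difference is heart minus spleen on that log2 scale. Spleen samples varied more than heart samples, with a median standard deviation (SD) per gene of 0.41 against 0.143 log2 units. Both antigens used to keep cells were well above background on all 6 arrays. Itgam, which encodes CD11b, differed by 0.03 ± 0.22 (standard error of the limma fit, SE; adjusted p = 0.938), and Ptprc, which encodes CD45, by −0.12 ± 0.16 (adjusted p = 0.673). Ly6g had no probe. Spleen 1 stood apart from the other spleens in B, T and NK cell markers, and spleen 4 had the lowest levels of most of the genes described here, so values without each are given below.

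All 9 genes were brighter on each spleen array than on each heart array. That was so for 16.6% of the 16365 tested genes, and 24.1% were brighter on each heart array. Of the 9 genes, 8 were among the genes called lower by the fit (6.52% of all genes), and Cd177 was not. Both counts follow from how the genes were picked. The median difference of the 9 was −7.32 log2 units, from −10.12 for Ngp to −1.52 for Padi4, against a median of 0.10 over all tested genes. It was −5.81 when heart arrays below background were set to the lowest level that counts as well above it. In bulk samples fewer cells of a type and less RNA per cell cannot be told apart.

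**Figure D1:**
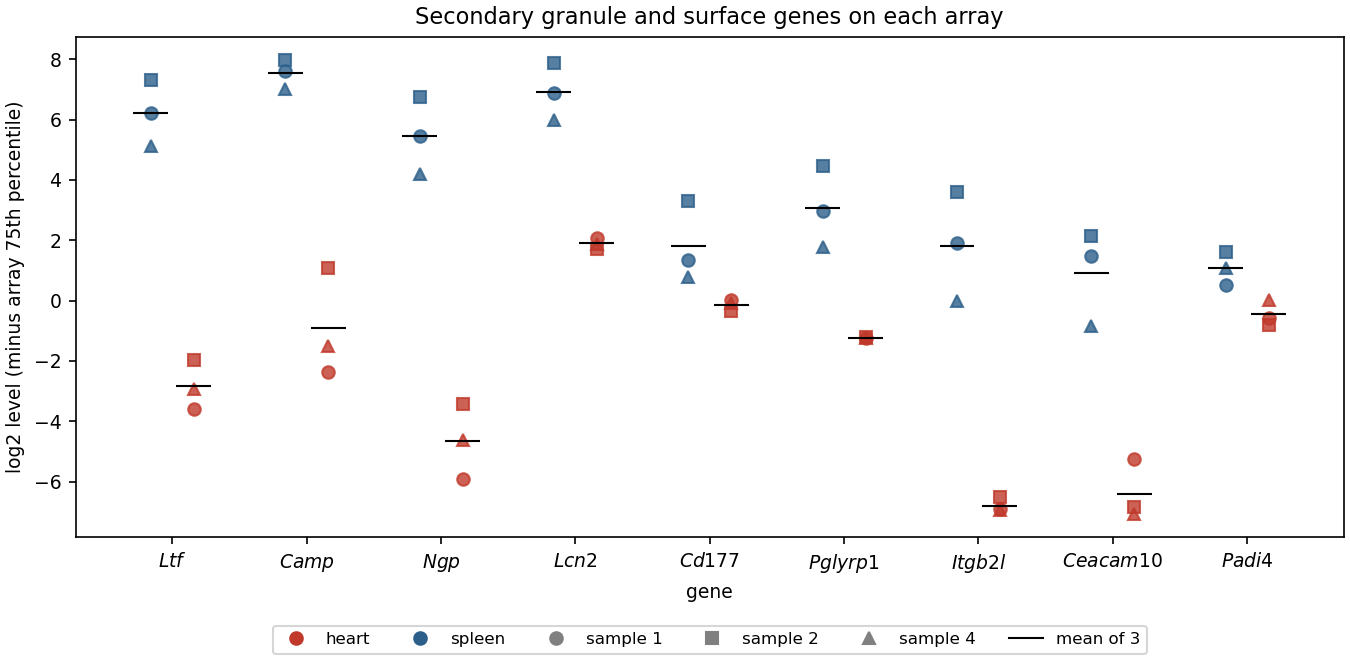
The vertical axis is the log2 level of each gene on each array (minus the array's 75th percentile), with 3 heart and 3 spleen arrays per gene, symbols for the sample number and a line at the mean of 3. The heart points lie below the spleen points for all 9 genes, with the narrowest gap at Padi4 (0.50 log2 units) and the widest at Ngp (7.61).

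Ltf encodes lactoferrin, the iron-binding protein by which secondary granules are recognised. Its probe (mm9 9:110942873-110942932, plus strand) had an intensity of 140000 in spleen 1, 252000 in spleen 2 and 57700 in spleen 4. In heart 1, heart 2 and heart 4 it read 125, 374 and 222. The tissues were thus far apart, and Ltf was nevertheless well above background on all 6 arrays. On the log2 scale the mean was 6.22 ± 1.09 (SD, n = 3) in spleen and −2.83 ± 0.82 (SD, n = 3) in heart, a difference of −9.04 ± 0.64 (SE). Its promoter is the first of the sequences above.

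Camp encodes the precursor of the antimicrobial peptide cathelicidin. Its brighter probe read 367000, 404000 and 214000 in spleens 1, 2 and 4, and 295, 3090 and 596 in hearts 1, 2 and 4. In spleens 1 and 2 these values came near the brightest spot of the array (416214 and 430517), in spleen 4 they did not (460962). No spot was marked as saturated, and whether this narrows the spread among spleens was not tested. Heart 2 stood above the other hearts, and the range over hearts was 3.45 log2 units against 0.97 over spleens. The mean log2 level was 7.54 ± 0.49 (SD, n = 3) in spleen and −0.92 ± 1.80 (SD, n = 3) in heart. The difference of −8.46 ± 0.86 (SE) became −9.47 without heart 2 and −7.74 without heart 1. The second probe, which shares 50 bases with the first, gave −9.33 and the same order of the 6 arrays.

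Ngp encodes neutrophilic granule protein, a relative of the cathelicidins and cystatins. Its probe spans 549 bases of mm9 (9:110324266-110324814, plus strand) for a length of 60 bases and so crosses at least 1 splice junction. It read 81400, 172000 and 30400 in spleens 1, 2 and 4 and 24.9, 136 and 68.8 in hearts 1, 2 and 4. Of the hearts, heart 2 alone was well above background. The difference was −10.12 ± 0.83 (SE), and −9.83 with each dim heart raised to its array's lowest level that counts as well above background.

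Lcn2 encodes lipocalin 2, a protein that captures bacterial iron carriers and that macrophages and epithelia can also make. The intensity (mm9 2:32240199-32240258, minus strand) was 218000, 377000 and 105000 in spleens 1, 2 and 4 and 6410, 4730 and 6240 in hearts 1, 2 and 4. Hearts were lower than spleens but remained bright and close to each other, with a mean log2 level of 1.89 ± 0.19 (SD, n = 3) against 6.91 ± 0.95 (SD, n = 3) in spleen. The difference was −5.02 ± 0.47 (SE).

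Pglyrp1 encodes a secreted peptidoglycan recognition protein of granules. It read 14500, 34700 and 5690 in spleens 1, 2 and 4 (mm9 7:19475662-19475721, plus strand) and 632, 630 and 721 in hearts 1, 2 and 4. The hearts had the narrowest range of any member, 0.05 log2 units, while the spleens spread over 2.67. The difference was −4.29 ± 0.62 (SE).

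Among the surface genes, Itgb2l encodes a beta integrin subunit related to Itgb2. Its probe (mm9 16:96643947-96644006, minus strand) read 6980, 19100 and 1630 in spleens 1, 2 and 4. In hearts 1, 2 and 4 the readings were 12.4, 15.7 and 13.8, and none was well above background. Itgb2l was therefore at least 104-fold lower in heart, with a fitted difference of −8.61 ± 0.84 (SE). Bounds of this kind set the brighter tissue against the higher of the probe's own level and the lowest level well above background on each dim array.

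Ceacam10 belongs to the carcinoembryonic antigen family. The intensity was 5220, 6980 and 925 in spleens 1, 2 and 4 and 39.3, 12.6 and 12.4 in hearts 1, 2 and 4, with no heart array well above background. Its probe spans 3293 bases of mm9 (7:25566203-25569495, plus strand) and so crosses a junction. Ceacam10 was at least 56-fold lower in heart (fitted difference −7.32 ± 0.85, SE).

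Cd177, the gene next to Ceacam10, encodes a surface glycoprotein of neutrophils. Its probe spans 4102 bases of mm9 (7:25531261-25535362, minus strand). It read 4790, 15800 and 2820 in spleens 1, 2 and 4 and 1540, 1130 and 1600 in hearts 1, 2 and 4. All 6 arrays were well above background, unlike for its neighbour. The difference was −1.95 ± 0.63 (SE), and the lowest spleen and the highest heart were 0.74 log2 units apart. It rested in part on spleen 2, and was −1.20 without it and −2.47 without spleen 4.

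Padi4 encodes a peptidylarginine deiminase that converts histone arginines to citrulline and takes part in the release of neutrophil extracellular traps. The representative probe (mm9 4:140301675-140301734, minus strand) read 2650, 4820 and 3510 in spleens 1, 2 and 4 and 1010, 826 and 1700 in hearts 1, 2 and 4. The tissues were separated by 0.50 log2 units, and the difference of −1.52 ± 0.35 (SE) was the smallest of the 9. A second probe at 4:140304002-140304061 gave −1.13, with a gap of 0.05 between the lowest spleen and the highest heart.

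**Figure D2:**
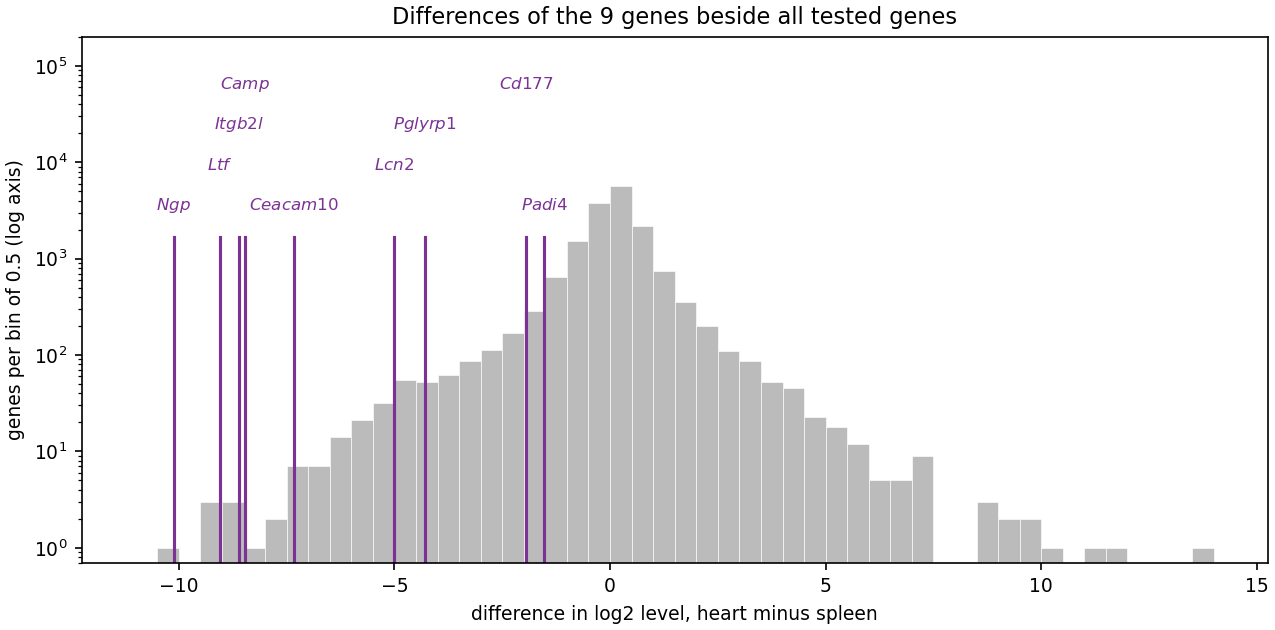
Grey bars count the 16365 tested genes by their difference in log2 level, heart minus spleen, in bins of 0.5 on a log axis, and purple lines mark the 9 genes. Ltf (−9.04) and Camp (−8.46) were measured on all 6 arrays, the lines of Ngp, Itgb2l and Ceacam10 rest on heart arrays below background and have no firm place in the order, and Cd177 and Padi4 lie nearest to the bulk of all genes.

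Among the spleens the 9 genes took nearly the same order. All 9 were highest in spleen 2, and 8 had the order spleen 2, spleen 1, spleen 4 from high to low, which 15.8% of all tested genes had and 28.2% of the 2717 genes that were lower in heart without overlap. Padi4 was the exception on its representative probe, with spleen 1 lowest. Its second probe read −2.75, −1.44 and −3.11 in spleens 1, 2 and 4 on the log2 scale, and so had the common order. The distance from spleen 2 to spleen 4 was largest for Itgb2l (3.60 log2 units) and smallest, among the 8, for Camp (0.97, or 1.57 on its second probe). The brighter Camp probe came near the brightest spots in spleens 1 and 2, and whether that narrowed its range was not tested. The median SD of the 9 genes was 1.28 over spleens and 0.423 over hearts. The genes share 3 libraries in this comparison, so their like order is a description and each gene is not a further replicate.

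The hearts showed no such common order. Heart 2 was the highest heart for Ltf, Camp and Ngp, the 3 members that share a stretch of chromosome 9, and also for Itgb2l and Pglyrp1, the former below background and the latter within 0.05 log2 units. For Lcn2, Cd177 and the representative probe of Padi4 heart 2 was the lowest. On the second Padi4 probe heart 1 was the lowest (−3.83, −3.69 and −3.16 in hearts 1, 2 and 4). Ltf and Camp had heart ranges of 1.63 and 3.45 log2 units, against 0.38 for both Lcn2 and Cd177. The range of Ngp was 2.51, or 1.66 with hearts 1 and 4, where it was not well above background, raised to the lowest level that counts as such.

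**Figure D3:**
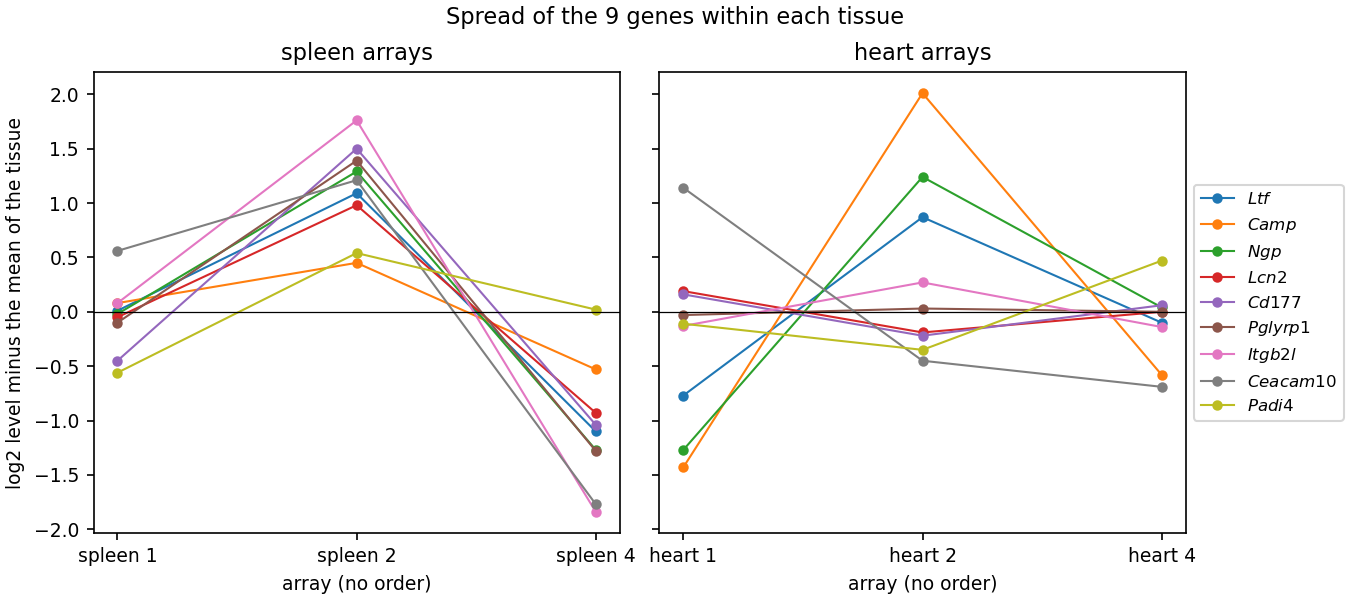
Each line is 1 of the 9 genes, drawn as its log2 level minus its own mean in the tissue on the spleen arrays (left) and heart arrays (right), and arrays have no order. In spleen all genes peak in spleen 2 and 8 are lowest in spleen 4, whereas in heart the lines cross, with Camp, Ngp and Ltf highest in heart 2 and no firm order for Itgb2l and Ceacam10, which were below background there.

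Leaving out a spleen moved the median difference of the 9 genes little against its size. It was −7.05 without spleen 1, −6.72 without spleen 2 and −8.21 without spleen 4. Each median in this paragraph was the value of Ceacam10, which was not well above background in any heart. Ltf, well above background on all 6 arrays, differed by −9.04, −8.50 and −9.59 without spleens 1, 2 and 4. By the scanner files slide 1 held spleens 1 and 2 alone, and slide 3 held hearts 2 and 4 alone. Between these slides tissue and slide cannot be told apart. Slide 2 held heart 1 and spleen 4, and within it the median was −4.42, with −8.71 for Ltf, −3.90 for Lcn2 and −0.74 for Cd177. With the date in the sample titles as a batch, the median was −7.86 on the earlier date (hearts 1 and 2, spleens 1 and 2) and −6.25 for heart 4 against spleen 4, the pair of the later date. As the tissues did not overlap, the direction in these subsets was fixed. Both single pairs contain spleen 4, the lowest spleen for 8 of the 9 genes.

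Other secondary and tertiary granule genes were listed apart from the 9. Of 16 listed, 14 were tested, 0 were called lower and 3 higher, and the median difference was −0.07. Over all tested genes 6.52% were called lower and 8.88% higher. Adam8, a membrane protease of granules and of macrophages, rose from a log2 level of 1.40 ± 0.37 (SD, n = 3) in spleen to 5.18 ± 0.23 in heart (3.78, limma adjusted p = 0.000884). Slc11a1, a metal transporter of phagosomes, rose by 2.18 (adjusted p = 0.0232) and Plaur, the urokinase receptor, by 1.55 (adjusted p = 0.0227). Slc11a1 missed the threshold without spleen 2 or any single heart (adjusted p from 0.0662 to 0.0942), and Plaur without any single heart (0.0869 to 0.0946). Chil3, a chitinase-like protein of myeloid cells and the brightest that was not called, was at 7.36 in heart and 7.69 in spleen (adjusted p = 0.418). Mmp25 (−3.46, limma adjusted p = 0.0813, below background in every heart) and Mmp9 (−2.93, adjusted p = 0.11) were lower in heart but not called. Olfm4, which was not tested, read 304, 526 and 27 in spleens 1, 2 and 4. In hearts 1, 2 and 4 it read 10.9, 13.3 and 13.1, none well above background. Of the 14 tested, 1 was lower in heart without overlap (16.6% of all tested genes) and 3 were higher (24.1%). Without spleen 4 the count of calls in the list was 6 of 15 tested, 3 higher and 3 lower. Over the 17267 genes of that fit 2395 were called higher and 1834 lower.

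Several primary granule genes, which are switched on earlier in the lineage, were lower in heart. Of 9 tested, 5 were called lower (6.52% of all genes) and 1 higher (8.88%), with a median difference of −2.85. The order spleen 2, spleen 1, spleen 4 held for 7 (15.8% of all tested genes). Ms4a3, a marker of granulocyte and monocyte progenitors, was not well above background in any heart and was at least 180-fold lower there (limma adjusted p = 0.007). Mpo, the myeloperoxidase gene, read 4.26, 5.73 and 0.46 in spleens 1, 2 and 4 on the log2 scale and −2.54, −1.49 and −2.72 in hearts 1, 2 and 4. That is a fall of 5.73 (adjusted p = 0.0316), and Ctsg, the cathepsin G gene, fell by 5.55 (adjusted p = 0.0283). Elane, the neutrophil elastase gene, was not called (−1.50, adjusted p = 0.248). It read 3.42, 5.19 and 1.79 in the spleens and 1.88 to 2.09 in the hearts, so spleen 4 was below the hearts, and without spleen 4 it passed (−2.34, adjusted p = 0.0296). Srgn, the granule proteoglycan serglycin, was the gene that rose (1.04, adjusted p = 0.0115). The list's summed linear level was 197 to 204 in the hearts and 130 to 401 in the spleens, and most of the heart sum was Srgn. The other 8 genes summed to 119, 308 and 34.4 in spleens 1, 2 and 4 and to 10.9, 11.1 and 12 in hearts 1, 2 and 4.

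These primary granule calls depended on single samples, as did the calls over all genes. With any heart left out 1 gene was called lower and 0 higher. Without spleen 1 it was 2 lower and 1 higher, and without spleen 4 it was 8 lower and 1 higher. Over all genes 136 to 152 were called lower and 346 to 364 higher with a heart left out. The counts were 1139 lower and 1526 higher without spleen 1, and 1834 lower and 2395 higher without spleen 4. Mpo missed the threshold in 5 of the 6 fits without a sample (adjusted p from 0.0646 to 0.117) and so did Ctsg (0.0582 to 0.107), the fit without spleen 4 being the other.

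Genes of mature neutrophils were called lower or not at all. Of 15 tested, 7 were called lower (6.52% of all genes) and 0 higher, and the median difference was −3.63 (−3.34 with dim arrays at the bound). Mrgpra2b, a Mas-related receptor gene, fell by 6.04 (limma adjusted p = 0.00943), and Retnlg, a resistin-like gene, by 5.21 (adjusted p = 0.0239). S100a9, a calcium-binding protein of neutrophils and monocytes, read 7.53, 7.82 and 7.40 in spleens 1, 2 and 4 and 2.35, 3.40 and 2.57 in the hearts. It fell by 4.81 (adjusted p = 0.00084) and kept its call without any single sample. Csf3r, the receptor for granulocyte colony-stimulating factor, was not called, at 5.60 in heart and 5.66 in spleen (adjusted p = 0.864). Retnlg missed the threshold without spleen 2 or any single heart (0.0688 to 0.0976) and Mrgpra2b without heart 4 (0.0524). The count of the list was 4 without spleen 2, 4 without heart 1 or heart 2, and 3 without heart 4. Calls over all genes, 2521 in the main fit, also fell, to 1819 without spleen 2 and to 482 to 516 without a heart.

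**Figure D4:**
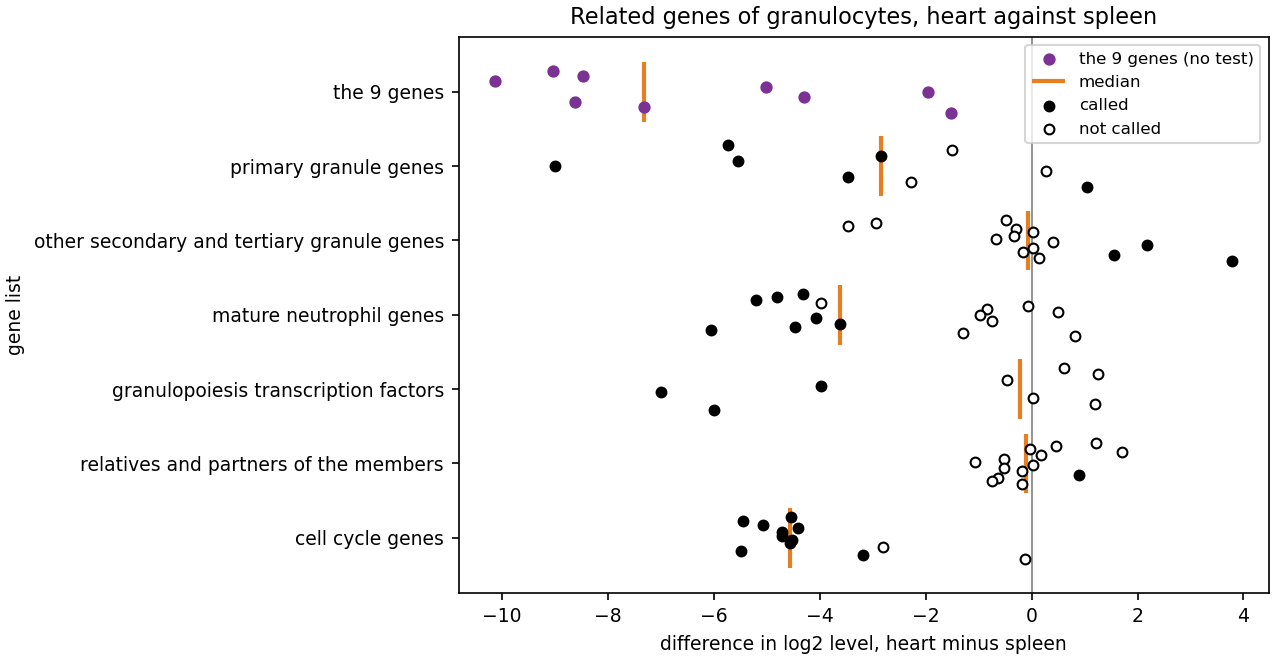
Points are genes by their difference in log2 level, heart minus spleen, for the 9 genes and 6 related lists, and orange bars are medians. In the 6 lists a point is filled where limma called the gene at an adjusted p under 0.05 and open where not. The 9 genes are all filled in purple, which marks no call. The other secondary and tertiary granule genes and the relatives centre near 0 (medians −0.07 and −0.10), while the cell cycle genes centre at −4.55.

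Of 8 transcription factors of granulocyte development, 3 were called lower (6.52% of all genes) and 0 higher. Cebpe, which encodes C/EBP epsilon, had log2 levels of 3.81, 5.73 and 2.30 in spleens 1, 2 and 4 and 0.24, −0.48 and 0.15 in hearts 1, 2 and 4, in the same spleen order as the granule genes. It fell by 3.98 ± 0.81 (SE, limma adjusted p = 0.0249). Gfi1, a repressor of the lineage, fell by 7.01 (adjusted p = 0.0162) and Klf5 by 6.00 (adjusted p = 0.0168), each well above background in heart 2 alone among the hearts (−5.90 and −5.11 with the other hearts at the bound).

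The factors shared with monocytes did not pass. Cebpa was at 0.61 (limma adjusted p = 0.52), Cebpb at 1.25 (0.0621), Cebpd at −0.46 (0.407), Spi1, which encodes PU.1, at 0.03 (0.964) and Runx1 at 1.20 (0.0601). Cebpb passed without spleen 4 (adjusted p = 0.0378) and Runx1 without spleen 2 (0.0203). Gfi1 and Klf5 missed the threshold without heart 1 or heart 4 (adjusted p from 0.0728 to 0.0768) and Cebpe without any single heart (0.0884 to 0.0995).

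Relatives and partners of the 9 proteins formed another list. Of 19 listed, 14 were tested, 1 was called higher (8.88% of all genes) and 0 lower (6.52%). The median difference was −0.10. Trem1, an activating receptor for which Pglyrp1 has been described as a ligand, rose from 2.24 ± 0.14 (SD, n = 3) to 3.14 ± 0.09 (0.90, limma adjusted p = 0.0202). Itgb2, the integrin subunit that Itgb2l resembles, was not called (0.47, adjusted p = 0.355). Trem1 missed the threshold without any single heart (adjusted p from 0.0851 to 0.106). In the list 3 genes were called without spleen 1 and 3 without spleen 4. Over all genes 2665 and 4229 were called in these 2 fits, against 2521 in the main fit.

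Genes of proliferating cells were lower in heart and took the spleen order of most of the 9 genes. Of 12 cell cycle genes, 10 were called lower (6.52% of all genes), and the median difference was −4.55. All 12 had the order spleen 2, spleen 1, spleen 4 (15.8% of all tested genes, 28.2% of those lower in heart without overlap). That order held for 1 of the 14 tested other secondary and tertiary granule genes and for 7 of the 15 tested mature neutrophil genes. Their summed linear level was 72.1, 179 and 24.5 in spleens 1, 2 and 4 and 13.9 to 15.0 in the hearts, and Top2a and Cdk1 were below background in every heart. The summed level of the 9 genes followed it in spleen, at 449, 808 and 254, and was 6.62 to 7.54 in the hearts. Sums weigh bright probes most and are given to set arrays, not lists, side by side. Of 7 progenitor markers, 2 were called lower, Kit and Myb (6.52% of all genes). The other 5 were not called, and the median difference of the 7 was −0.10. Their summed levels were 6.22 to 9.86 in spleen and 3.56 to 4.09 in heart, and Myb was below background in every heart.

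Markers of lymphocytes followed another pattern. The summed level of the 5 tested B cell markers was 122 in spleen 1 and 4.80 and 3.96 in spleens 2 and 4, against 2.95 to 4.18 in the hearts. For the 4 tested T and NK cell markers it was 73.4 in spleen 1, 3.27 and 2.49 in spleens 2 and 4 and 0.71 to 0.83 in the hearts. Among the 9 genes 0 were highest in spleen 1, and without that sample their median difference was −7.05. The 3 tested of 6 erythroid markers summed to 140, 17.8 and 7.56 in spleens 1, 2 and 4 and to 7.91 to 38.9 in the hearts. The probe annotated as Hbb-b1 was tested under its RefSeq name Hbb-bt and is not in that sum. It read 5.91, 3.05 and 1.74 in spleens 1, 2 and 4 on the log2 scale and was highest in heart 2 and lowest in heart 4 (0.78) among the hearts.

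Other myeloid markers did not run in a single direction. Of 7 macrophage markers 5 were called higher in heart (8.88% of all genes) and 0 lower (6.52%). Their sums were 106 to 132 in heart and 19.1 to 37.4 in spleen. Monocyte markers were called higher for 1 of 7 and lower for 1, with sums of 215 to 236 in heart and 76.4 to 241 in spleen. Eosinophil markers summed to 1.41 to 2.80 in spleen and 0.72 to 0.80 in heart, where Epx and Prg2 were below background on all arrays. Prg2, an eosinophil granule protein, was called lower (at least 10.3-fold, limma adjusted p = 0.01), and read 0.47, −2.27 and −2.76 in spleens 1, 2 and 4. For basophil and mast cell markers, 4 of 6 were below background in every heart, and Gata2 had a usable reading in heart 2 alone, also below background. Prss34, the 1 tested, had the spleen order of most of the 9 genes (1.05, 1.21 and −3.45 in spleens 1, 2 and 4). It was not called (−4.51, limma adjusted p = 0.0526). Whether these lists have a part in the levels of the 9 genes was not tested.

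**Figure D5:**
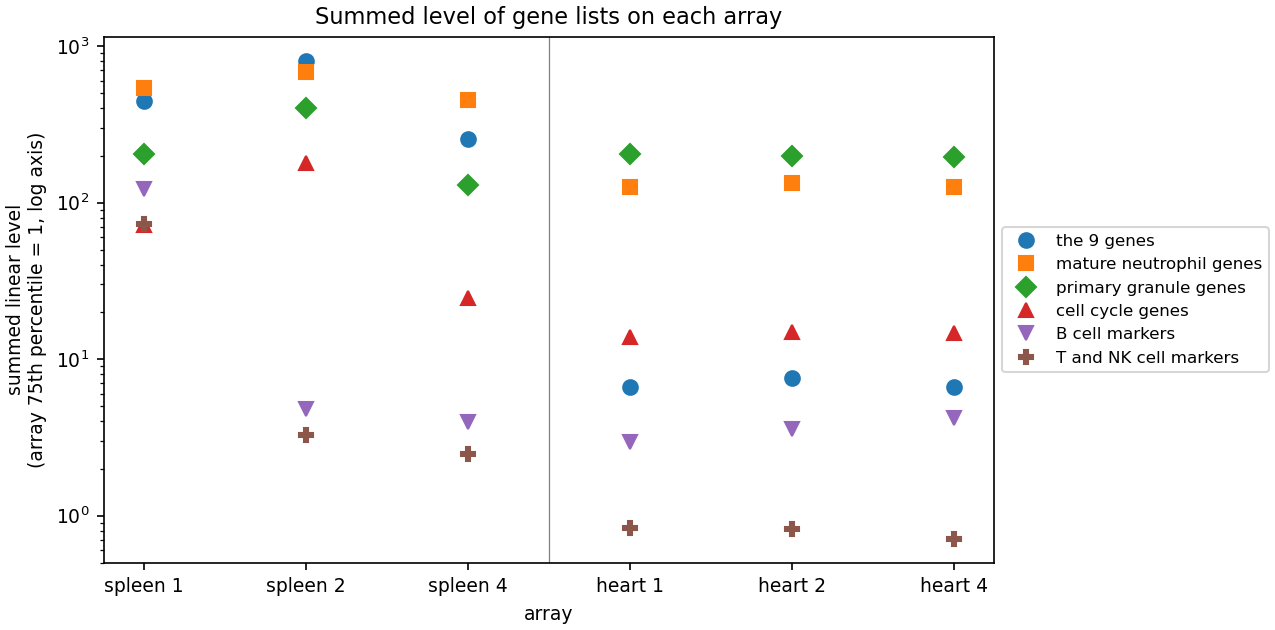
The summed linear level (array 75th percentile = 1, log axis) of 6 gene lists is drawn for each of the 6 arrays. The 9 genes and the cell cycle genes peak in spleen 2 (808 and 179) and the B cell and T and NK cell markers peak in spleen 1 (122 and 73.4), while the heart points of the primary granule genes (197 to 204) are mostly Srgn.

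The 9 genes differed in how closely they followed their own median profile over the 6 arrays, each gene being centred on its mean. With arrays below background raised to the lowest level well above it, the root mean square distance was 0.15 log2 units for Ceacam10, 0.52 for Itgb2l, 0.59 for Lcn2 and 0.86 for Pglyrp1. It lay between 1.62 and 2.05 for Ltf, Camp, Ngp and Cd177, and was 2.35 for Padi4. On the levels as read, it ran from 0.58 for Ceacam10 to 2.90 for Padi4. Outside the 9, the genes nearest to the profile of levels as read over the 6 arrays were Ifnlr1 (0.54), LOC677460 (0.55), Mrgpra2a (0.62), Mrgpra6 (0.65), Stfa1 (0.65), Ankrd22 (0.67), Kif11 (0.68), Depdc1b (0.72), Mogat2 (0.73) and Mrgpra2b (0.75). The Mrgpra and Stfa genes belong to families with near-identical copies that can share signal on a probe. Of these 10 genes, 5 were also among the 10 nearest with dim arrays raised (Mrgpra2a, Mrgpra2b, Stfa1, Ankrd22 and Depdc1b). For 7 of the 10 every heart array was below background, so their place rests on undetected signals, among them Ifnlr1, a subunit of the interferon lambda receptor, and Kif11, a mitotic kinesin. Ifnlr1 read 0.06, 1.38 and −2.01 in spleens 1, 2 and 4, Kif11 0.22, 2.05 and −2.09. As these genes were chosen for their likeness, the values are a description.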

How the data were processed

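RNA was measured on 6 single-colour Agilent arrays, 3 of heart and 3 of spleen myeloid cells. The deposited scanner files give a linear intensity for every spot. The authors ran Agilent Feature Extraction 10.7.3.1 (submitters' processing notes), which subtracted background, per the file headers. The deposited value table holds log2 values. Its differences between arrays matched quantile-normalized signals (r from 0.9993 to 0.9999 for 15 array pairs over 19313 probes), every column median was 0, and the baseline subtracted is unknown, so it served as an alternative.

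Processed signals were taken as log2 minus each array's 75th percentile, without control and outlier spots, and spots of a probe were averaged. Of 39429 probes, 17624 were left out because neither tissue had all 3 arrays well above background. Accessions named 26412 probes through a RefSeq table, and the others kept the file's name. The tested probe with the highest mean represented a gene. Heart and spleen were compared with limma 3.58.1 in R 4.3.3 (lmFit, eBayes, two-sided, Benjamini-Hochberg over 16365 genes, called at adjusted p under 0.05; data.table, version 1.17.8), and 2521 genes were called, 1454 higher and 1067 lower. The fit was tested on simulated data. Promoters and figures used Python 3.11.15, pandas 2.3.3 and matplotlib 3.10.9.

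The 9 genes and all lists were chosen with earlier results of these data known. Named from each list were the 3 called genes with the largest change, the brightest not called, all transcription factors, and the 10 nearest profiles. Srgn, Mmp9, Mmp25, Olfm4, Kit, Myb, Top2a, Cdk1, Epx, Prg2, Prss34, Gata2 and Hbb-b1 were named after their values were seen. Alternatives changed scaling, background correction, filter, source, probe rule, weights, slide, title date, replicate block and samples. The number of arrays limits the precision. Same-numbered samples did not deviate together (r = −0.05, 0.04 and 0.01), so numbers were not taken as pairs.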

Additional observations from a re-analysis of the deposited data

How the results depend on the processing

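No direction reversed for a called value. The median difference of the 9 genes moved to −5.10 with normexp background correction, to −5.81 with dim arrays raised to the floor (the lowest detected level on the same array), a setting chosen after seeing the data, to −4.65 over the 6 genes well above background on all 6 arrays, and to −4.42 with slide as a fixed block and within slide 2, where heart 1 and spleen 4 are the pair that informs it. Without single samples it lay between −8.21 and −6.72. The count of called genes (2521) was 1449 with no filter on dim probes, 85 with slide as a fixed block, 1587 with the replicate block, and 482 to 4229 without single samples. No correlation with the same number exceeded 0.04, and the replicate block ended 1 call among the named genes, Trem1 (adjusted p = 0.0678). Primary granule calls (6) were 3 with no filter, 0 with slide as a fixed block and 1 to 9 without single samples. Other secondary and tertiary granule calls (3) were 1 with slide as a fixed block, 5 on the earlier date alone and 1 to 6 without single samples. Mature neutrophil calls (7) were 2 with slide as a fixed block and 3 to 10 without single samples. Transcription factor calls (3) were 1 with probes well above background on all 6 arrays, 0 with slide as a fixed block and 0 to 4 without single samples. Calls among relatives and partners (1) were 2 with quantile scaling, normexp, the deposited value table, title date as a fixed block or array weights, 0 with slide as a fixed block or the replicate block, and 0 to 3 without single samples. The cause of these shifts was not tested beyond the fewer samples or genes that a setting leaves. With slide as a fixed block, Adam8 and S100a9 kept their calls among the called genes named by the rule from the lists, and the other 11 did not. Low signal limits Ngp, Itgb2l and Ceacam10 in heart, where some or all arrays give a bound. The main median of the 9 genes is the value of Ceacam10.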
